A study of Mus musculus with 19 samples.

Results

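Of the 36172 genes in the count table, 10 genes of the endoplasmic reticulum (ER) were followed across ages, each taken as the single row that carries its symbol: Sdf2l1, Hspa5, Hsp90b1, Pdia4, Creld2, Manf, Hyou1, Dnajb11, Calr and Xbp1. Whole ovaries came from female mice of the inbred strain C57BL/6, and their RNA was sequenced at 3 months (5 libraries), 6 months (5 libraries), 9 months (5 libraries) and 12 months (4 libraries) of age. The labels name no treatment, no genetic alteration, no stage of the oestrous cycle and no number of animals behind a library. Replicate numbers only name the libraries of an age. Because separate animals are not stated, the p-values below measure library-to-library spread, part of which may be technical. Levels are in CPM, counts scaled to a common library size, and a gene is said to have risen or fallen where the adjusted p of edgeR's quasi-likelihood test, fitted over all genes, was under 0.05.

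Proteins that are secreted or sit in membranes fold inside the ER. The Hsp70-type chaperone BiP (Hspa5) binds unfolded chains there, helped by cochaperones, by the Hsp90-type chaperone GRP94 (Hsp90b1), by lectin chaperones that read sugars, and by enzymes that make and break disulfide bonds. When unfolded protein builds up, the sensors IRE1, PERK and ATF6 start the unfolded protein response, and the transcription factors ATF6 and spliced XBP1 switch on chaperone genes through a promoter motif called the ER stress response element (ERSE). In the ovary, granulosa cells, luteal cells, oocytes, stromal cells and resident plasma cells all secrete protein, so each can contribute these transcripts.

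The members' start sites were looked at for that motif, because genes that share it can be switched on together. The ERSE was searched on both strands, as CCAAT, then 9 bases of any kind, then CCACG, in RefSeq windows of build GRCm38.p6 that run from 250 bases before to 50 bases after a gene's start. The table held a window for 8 of the 10 members, with none for Manf and Hyou1. Hspa5, Hsp90b1, Calr and Creld2 had a match, 4 of 8, against 0.137% of the 27025 genes in the table. Hsp90b1 had 2 matches. In the lines below each match reads 5′ to 3′ from its CCAAT to its CCACG, which are in capitals, and the strand of the genome that carries it is given.

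Hspa5, chr2:34772025-34772043, plus strand: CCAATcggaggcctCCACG
Hsp90b1, chr10:86705638-86705656, minus strand: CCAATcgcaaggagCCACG
Hsp90b1, chr10:86705533-86705551, plus strand: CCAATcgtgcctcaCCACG
Calr, chr8:84847075-84847093, plus strand: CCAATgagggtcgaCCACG
Creld2, chr15:88819520-88819538, minus strand: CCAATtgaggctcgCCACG

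Dnajb11 held the shorter element ERSE-II, searched on both strands as ATTGG, any base, then CCACG, which 0.0444% of genes had. Its match was ATTGGcCCACG at chr16:22857852-22857862 on the plus strand, with the fixed letters in capitals. The XBP1-type element UPRE, searched as TGACGTGG on both strands, was in none of the 8 windows and in 0.714% of genes. Both ERSE and ERSE-II end in CCACG, which by itself was in 7 of the 8 members' windows and in 35.5% of genes. The pair of whole windows that follow contrast Hspa5 with Sdf2l1, the member whose level differed most between ages. Capitals mark every CCAAT and CCACG, on either strand.

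Hspa5, chr2:34771840-34772139, plus strand: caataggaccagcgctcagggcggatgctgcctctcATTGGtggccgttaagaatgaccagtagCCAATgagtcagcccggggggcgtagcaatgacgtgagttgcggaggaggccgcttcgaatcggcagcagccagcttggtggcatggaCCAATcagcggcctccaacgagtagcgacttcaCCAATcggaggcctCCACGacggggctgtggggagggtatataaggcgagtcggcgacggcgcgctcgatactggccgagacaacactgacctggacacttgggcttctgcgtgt
Sdf2l1, chr16:17132334-17132633, minus strand: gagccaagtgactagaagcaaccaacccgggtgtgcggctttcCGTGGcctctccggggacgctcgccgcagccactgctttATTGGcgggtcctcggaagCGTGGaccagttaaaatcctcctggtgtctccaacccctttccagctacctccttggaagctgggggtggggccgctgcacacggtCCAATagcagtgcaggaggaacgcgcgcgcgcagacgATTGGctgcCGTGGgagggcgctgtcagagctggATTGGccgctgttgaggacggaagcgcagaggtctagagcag

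The Hspa5 window held 4 CCAAT and 1 CCACG, and the Sdf2l1 window held 4 CCAAT and 3 CCACG, of which no pair had the ERSE spacing. A match is a run of letters and shows no binding. A window without one says only that these letters are not in it.

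The libraries held 10851519 to 14302207 estimated counts, and 15518 genes passed the low-count filter. Markers of ovarian cells were detected at every age: the 11 oocyte markers summed to 72.2 to 171 CPM at 12 months against 376 to 586 CPM at 3 months, and the 10 granulosa cell markers to 1700 to 3318 CPM against 2324 to 3475 CPM. Transcripts of other tissues were uneven. Cr2, a gene of lymphoid follicles, was over 5 CPM in 9 month replicates 1 and 2 and 12 month replicate 2, at 6.15, 10.7 and 12.5 CPM, and at most 0.837 CPM elsewhere. Alb, the liver's albumin gene, was at 44.0, 109, 362, 16.2 and 3.04 CPM in the 9 month libraries and at most 5.12 CPM at other ages. Whole-ovary RNA cannot tell a change within cells from a change in the number of cells that hold a transcript.

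Sdf2l1, Creld2, Manf and Calr rose between 3 and 12 months, and the most abundant chaperone genes of the set, Hspa5 and Hsp90b1, did not pass the test. Of the 10 members 9 passed the low-count filter, and 4 of these 9 rose and 0 fell. Over all genes 10.9% rose and 11.5% fell. The members' median log2 change was 0.19, against 0.02 for all genes tested. Along the linear trend with age, given as the change over 9 months, the same 4 members rose where 14.7% of all genes did. All 12 month libraries lay above all 3 month libraries for Sdf2l1, Creld2 and Manf, a pattern that 6.72% of all genes had.

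**Figure D1:**
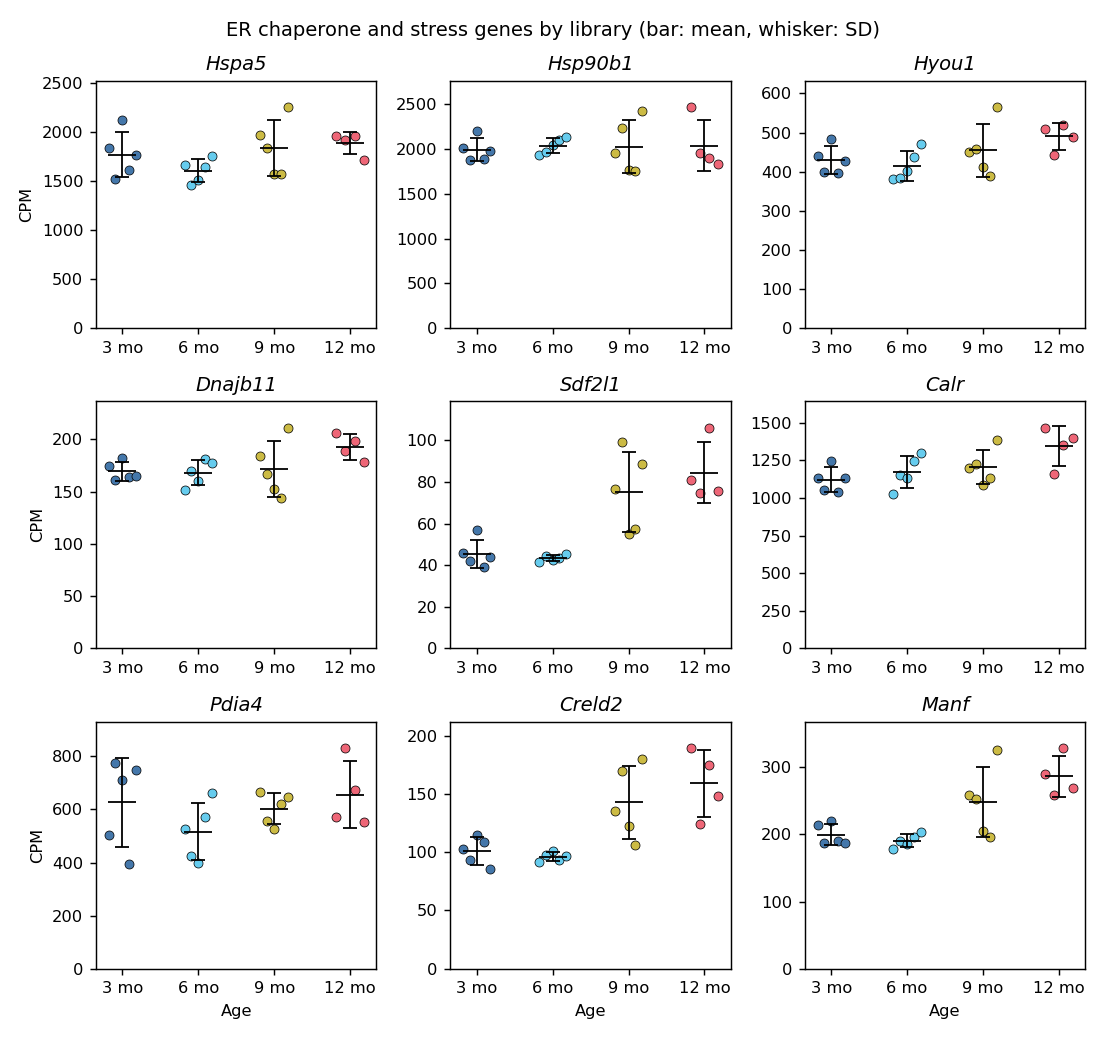
CPM of 9 ER chaperone and stress genes (y axis, from 0) by age in months (x axis), with 1 point per library, a bar at the mean and whiskers of 1 SD. Sdf2l1, Creld2 and Manf sat higher at 9 and 12 months than at 3 and 6 months, while the means of Hsp90b1 ran from 1994 to 2040 CPM.

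Xbp1, the transcription factor whose mRNA is spliced by IRE1 under ER stress, was listed at 0 in every one of the 19 libraries. Of the 21004 protein-coding rows 3114 (14.8%) were at 0 in every library, and a row at 0 can be a failed estimate, so no level is given for Xbp1. Gene counts would in any case not separate its spliced from its unspliced form. Xbp1 lies on chromosome 11 from 5520641 to 5525993 in build mm10, which is also the build of the positions that follow.

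The chaperone BiP and its partners come first. Hspa5 (chromosome 2, 34772090 to 34776529) was at 1962, 1915, 1958 and 1718 CPM in the 12 month libraries, against 1838, 1518, 2122, 1614 and 1763 CPM in the 3 month libraries. These ages overlapped, and its log2 change was 0.09 ± 0.10 (SE; 95% interval -0.12 to 0.31; edgeR adjusted p = 0.549). At 6 months it averaged 1607 ± 120 CPM (SD, n = 5) and at 9 months 1839 ± 288 CPM (SD, n = 5), with its highest library, 2252 CPM, at 9 months. Rabepk overlaps Hspa5 by 1921 bases, and whether the counting used strand is not given, so reads of that stretch could belong to either gene.

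Hsp90b1, the Hsp90 of the ER lumen (chromosome 10, 86690841 to 86705444), was at 2466, 1956, 1899 and 1837 CPM at 12 months, against 2012, 1880, 2199, 1895 and 1983 CPM at 3 months. A single 12 month library stood above the rest and the ages overlapped, with a log2 change of 0.03 ± 0.09 (SE; 95% interval -0.16 to 0.23; edgeR adjusted p = 0.837). Hyou1 (chromosome 9, 44379490 to 44392369), which exchanges the nucleotide of BiP, averaged 490 ± 33.9 CPM in 12 month ovaries (n = 4, SD), against 429 ± 35.7 CPM in 3 month ovaries (n = 5, SD). In 3 of the 4 libraries of 12 months it lay above every 3 month library, and its log2 change of 0.19 ± 0.09 (SE) missed the threshold (edgeR adjusted p = 0.148). Dnajb11, the J-domain cochaperone ERdj3 of BiP (chromosome 16, 22857845 to 22879634), averaged 193 ± 12.3 CPM in 12 month ovaries (n = 4, SD), against 170 ± 8.91 CPM in 3 month ovaries (n = 5, SD). Its log2 change, 0.19 ± 0.09 (SE), also missed it (edgeR adjusted p = 0.137). The noncoding gene Gm30505 overlaps Dnajb11 by 4652 bases and has no level in these data.

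Sdf2l1 (chromosome 16, 17130138 to 17132383) encodes a small luminal protein that works in complex with ERdj3 and BiP and keeps unfolded chains soluble. It had 81.1, 74.6, 106 and 75.8 CPM in the 12 month libraries, against 45.7, 41.8, 56.7, 39.2 and 43.9 CPM in the 3 month libraries. Every 12 month library was above every 3 month library, and the gene rose 1.85-fold, a log2 change of 0.89 ± 0.15 (SE; edgeR adjusted p = 0.00134). At 6 months its 5 libraries lay between 41.4 and 45.5 CPM. At 9 months it had 76.4, 99.1, 54.9, 57.5 and 88.6 CPM, so 4 of 5 libraries were above every 3 month library and replicate 3 fell inside their range. It rose against 3 months by then (0.73 ± 0.15; log2, SE; edgeR adjusted p = 0.00167).

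Of the enzymes of disulfide bonds, one rose and the other did not pass the test. Creld2 (chromosome 15, 88819646 to 88826681), an ER resident of that class, had 189, 124, 175 and 148 CPM at 12 months, against 103, 92.9, 115, 109 and 85.3 CPM at 3 months. The ages did not overlap, and it rose 1.57-fold (log2 0.65 ± 0.14, SE; edgeR adjusted p = 0.00394). Pdia4, the isomerase ERp72 (chromosome 6, 47796141 to 47813512), had 571, 830, 672 and 551 CPM at 12 months, against 504, 773, 712, 395 and 750 CPM at 3 months. It was scattered within both ages, with a coefficient of variation of 19.5% and 26.8%, and its interval for the log2 change ran from -0.33 to 0.46 (edgeR adjusted p = 0.837).

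Manf (chromosome 9, 106888753 to 106891938), a small protein that binds BiP and can be secreted under stress, had 290, 258, 328 and 269 CPM at 12 months, against 214, 187, 220, 190 and 187 CPM at 3 months. Again no library of one age reached the other, and it rose 1.43-fold (log2 0.52 ± 0.11, SE; edgeR adjusted p = 0.00448). At 9 months its libraries held 259, 253, 205, 196 and 326 CPM, with replicates 3 and 4 inside the 3 month range. Its rise by 9 months was smaller (0.31 ± 0.11; log2, SE; edgeR adjusted p = 0.0391) and held in 20 of 31 alternatives. Leaving out any one of 3 month replicates 2, 4 and 5 and 9 month replicates 1, 2 and 5 ended that call (0.21 to 0.32), as did leaving out the libraries over 5 CPM of Cr2 (0.30; edgeR adjusted p = 0.12).

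Calr (chromosome 8, 84842088 to 84846931), the lectin chaperone calreticulin, which also stores calcium, had 1466, 1157, 1350 and 1399 CPM at 12 months, against 1134, 1051, 1248, 1037 and 1134 CPM at 3 months. In 12 month ovaries 3 of the 4 libraries were above every library of 3 months. It rose 1.20-fold (log2 0.26 ± 0.08, SE; edgeR adjusted p = 0.03), the smallest of the 4 rises. The call held in 22 of 31 alternatives. It ended when any one of 12 month replicates 1, 3 and 4 and 3 month replicates 2, 4 and 5 was left out (0.21 to 0.26), and when length and GC of genes were corrected for (0.22; edgeR adjusted p = 0.087).

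**Figure D2:**
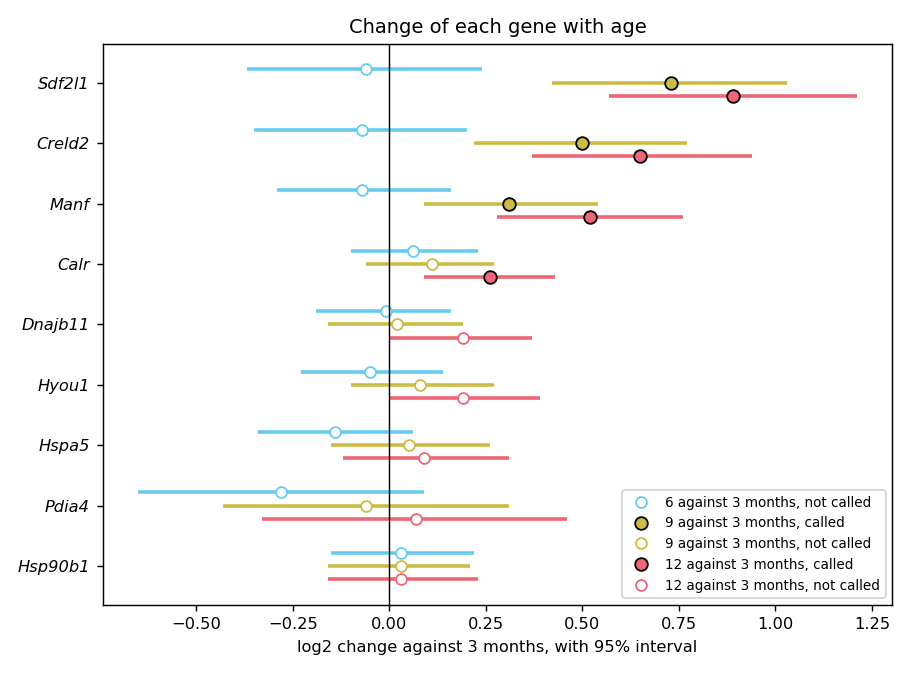
Log2 change of each gene at 6, 9 and 12 months against 3 months (x axis) with its 95% interval, filled where the adjusted p was under 0.05. At 6 months no gene was called, at 9 months Sdf2l1, Creld2 and Manf, and at 12 months Calr as well.

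Of the 3 steps between successive ages, only that between 6 and 9 months held called members, and the steps were not tested against each other. Between 3 and 6 months 0 of the 9 members tested passed edgeR's test and 0 had an unadjusted p under 0.05, where 3 of 15518 genes (0.0193%) were called and 1528 had such a p. DESeq2 called 0 members there, and 24 genes up and 23 down. Between 6 and 9 months Sdf2l1 rose by 0.79 ± 0.15, Creld2 by 0.57 ± 0.13 and Manf by 0.38 ± 0.11 (log2, SE; edgeR adjusted p = 0.00205, 0.00745 and 0.0217), 3 of 9 members where 7.44% of genes rose. Manf lost this call without the libraries over 5 CPM of Cr2 (log2 change 0.36; edgeR adjusted p = 0.0701). All 9 month libraries of Sdf2l1 and Creld2 were above all their 6 month libraries, as for 4.36% of genes. Liver markers moved with the same step, and 8 of 9 tested rose between 6 and 9 months. The library with the most Alb, 9 month replicate 3, had 54.9 CPM of Sdf2l1 and 205 CPM of Manf, and the 9 month library with the least, replicate 5, had 88.6 CPM and 326 CPM. Replicates 1, 2 and 4, with 44.0, 109 and 16.2 CPM of Alb, had 76.4, 99.1 and 57.5 CPM of Sdf2l1. Their Manf levels were 259, 253 and 196 CPM. The part of liver transcripts in the rises was not tested. Between 9 and 12 months 0 members passed edgeR's test and 0 had an unadjusted p under 0.05. Over all genes 0 of 15518 (0%) were called there and 2152 had such a p, and DESeq2 called 0 members, with 70 genes up and 182 down. The changes of that last step were 0.16 for Sdf2l1 (95% interval -0.16 to 0.48), 0.16 for Creld2 (-0.13 to 0.45) and 0.21 for Manf (-0.03 to 0.44), on the log2 scale.

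The remaining pairs of ages span more than one step. Against 3 months, 3 of 9 members rose at 9 months, where 11.3% of genes did, and Creld2 was one of them (0.50 ± 0.13; log2, SE; edgeR adjusted p = 0.0102). Against 6 months, the 12 month libraries were higher in Sdf2l1 by 0.95 ± 0.15, in Creld2 by 0.73 ± 0.14 and in Manf by 0.59 ± 0.11 (log2, SE; edgeR adjusted p = 0.00162, 0.00356 and 0.00364), where 6.15% of genes rose. The mean levels of these 3 genes therefore ran from 6 months (lowest) through 3 and 9 months to 12 months (highest), with neither the lower pair nor the upper pair of ages told apart. Between 6 and 12 months 7 of the 9 members tested had an unadjusted p under 0.05 in edgeR's test, as had 4602 of 15518 genes. Hspa5 was among them (0.23 ± 0.10; log2, SE; 95% interval 0.02 to 0.45) but was not called (edgeR adjusted p = 0.136). Comparisons that share a group of libraries are not independent of each other. Over the whole span the trend gave Sdf2l1 a log2 change of 1.04 ± 0.17, Creld2 0.75 ± 0.15, Manf 0.57 ± 0.12 and Calr 0.24 ± 0.08 (SE; edgeR adjusted p = 0.000548, 0.00129, 0.00166 and 0.0233). Leaving out 12 month replicate 1 or 4 ended the trend call on Calr (0.20 and 0.21), as did correcting for length and GC (0.19; edgeR adjusted p = 0.0806).

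Set on a common scale per kilobase of transcript, levels differed widely within the set. At 12 months Hspa5 stood at 723 CPM per kilobase, Hsp90b1 at 722, Calr at 615 and Pdia4 at 273. Manf followed with 127 CPM per kilobase, then Creld2 with 116, Hyou1 with 111, Dnajb11 with 76.7 and Sdf2l1 with 76.1. At 3 months the corresponding level of Sdf2l1 was 41.0 CPM per kilobase, the lowest of the 9, and that of Hsp90b1 was 706, the highest.

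Whether a gene changed by a different amount from Hspa5 was asked with the log2 ratio of the 2 genes within each library, a measure that no scaling between libraries can move. The comparison was chosen with the values known. The ratio of Sdf2l1 to Hspa5 was -4.50 ± 0.20 at 12 months (SD, n = 4) and -5.29 ± 0.08 at 3 months (SD, n = 5), a difference of 0.79, with no overlap between the ages (exact two-sided permutation p = 0.0159, the smallest that 4 against 5 libraries allow; adjusted p = 0.0635 over 8 ratios). For Manf the difference was 0.42 with no overlap (exact permutation p = 0.0159; adjusted p = 0.0635), and for Creld2 it was 0.54 with overlap (exact permutation p = 0.0317; adjusted p = 0.0847). The other 5 ratios differed by -0.08 to 0.16 (exact permutation p from 0.143 to 1). Over 8 ratios, 2 at the smallest p do not by themselves give an adjusted p under 0.05, and 2 were at it.

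Library by library, most members varied together. Over the 36 pairs of the 9 tested genes, the correlation of log2 CPM across the 19 libraries had a median of 0.66 and a range of 0.08 to 0.93, with Sdf2l1 and Manf at 0.93. After subtracting each age's mean the median was 0.71 and the range -0.30 to 0.91, so the genes also shared differences between libraries of one age. These values describe 19 libraries, and the genes of a library share its depth, scaling and tissue make-up. In 9 month replicate 5 the mean of the 9 genes, each in SDs from its own mean, was 1.64, the highest of all libraries, while 9 month replicates 3 and 4 were at -0.68 and -0.75. Pdia4 followed the others least, with correlations of 0.08 to Hsp90b1 and 0.11 to Creld2. The larger spread at 9 months was seen in the SD of Sdf2l1, Creld2 and Manf alike: the coefficient of variation of Sdf2l1 was 25.5% at 9 months and 3.56% at 6 months and that of Manf 20.9% and 5.15%. Pdia4 had its lowest coefficient of variation at 9 months, 9.82%. Over all genes edgeR's common estimate of biological variation was 13.5%, 11.4%, 22.6% and 23.7% at 3, 6, 9 and 12 months.

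**Figure D3:**
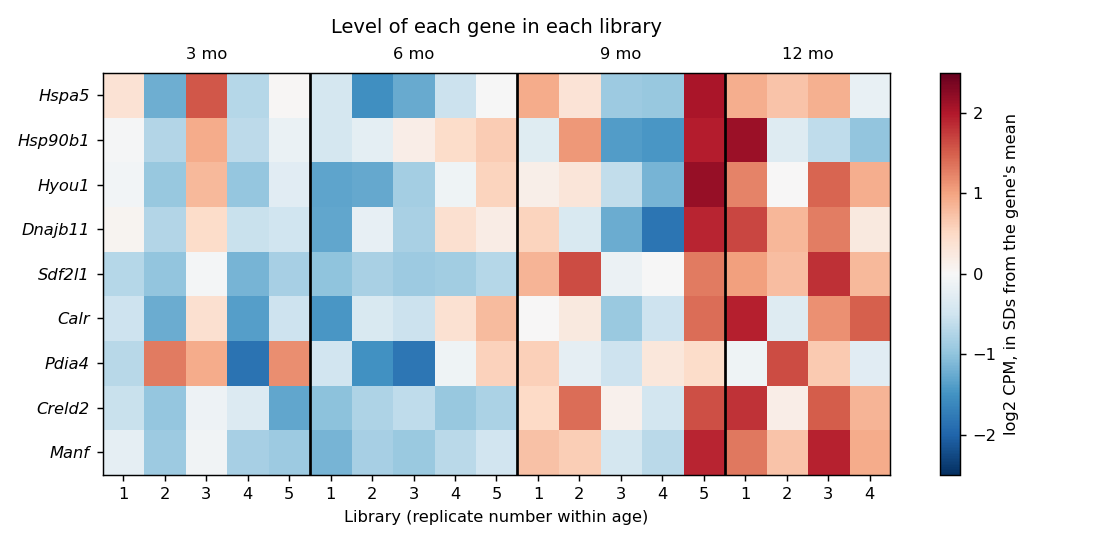
Log2 CPM of each gene (rows) in each library (columns, grouped by age), in SDs from the gene's mean, red high and blue low. The 9 month libraries split, with replicate 5 high and replicates 3 and 4 low for most genes, and the 12 month libraries are high for Sdf2l1, Creld2 and Manf.

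Plasma cells are packed with ER, and some transcripts of plasma and B cells also rose with age. Of the 9 tested markers of these cells 5 rose between 3 and 12 months, where 10.9% of all genes did, and 0 fell, and the 10 with a row summed to 186 to 702 CPM at 12 months against 136 to 273 CPM at 3 months. None of the 10 was at 0 in every library. Igj, the joining chain of antibodies, was at 49.8 to 269 CPM at 12 months and 2.48 to 10.2 CPM at 3 months. The plasma cell markers Sdc1, at 69.3 to 202 CPM and 115 to 248 CPM, and Prdm1, at 6.60 to 10.6 CPM and 4.95 to 7.79 CPM, overlapped between these ages. Sdc1 made up most of the summed level in every 3 month library, so that sum mainly follows Sdc1 there. In 12 month replicate 3, where Sdf2l1 was at its highest, 106 CPM, Igj was at 49.8 CPM, above every 3 month library, and the B cell gene Cd79a at 0.519 CPM, inside its 3 month range of 0.15 to 0.874 CPM. In 9 month replicate 5, where Sdf2l1 was at 88.6 CPM, Igj was at 30.0 CPM, Cd79a at 0.913 CPM and Cr2 at 0.228 CPM. By contrast, 9 month replicate 2 had 99.1 CPM of Sdf2l1 together with 365 CPM of Igj, the most of any library. Its Cd79a was at 32.4 CPM and its Cr2 at 10.7 CPM. Without the 3 libraries over 5 CPM of Cr2 the log2 change of Sdf2l1 between 3 and 12 months was 0.94, that of Creld2 0.76, that of Manf 0.57 and that of Calr 0.33, all still called by edgeR (adjusted p = 0.000598, 0.00143, 0.00519 and 0.0117). With the plasma and B cell list as a covariate they were 0.90, 0.74, 0.60 and 0.35, also all called (edgeR adjusted p = 0.00422, 0.0061, 0.00543 and 0.0137). These fits do not measure the part of plasma and B cells in the rises, which was not tested.

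**Figure D4:**
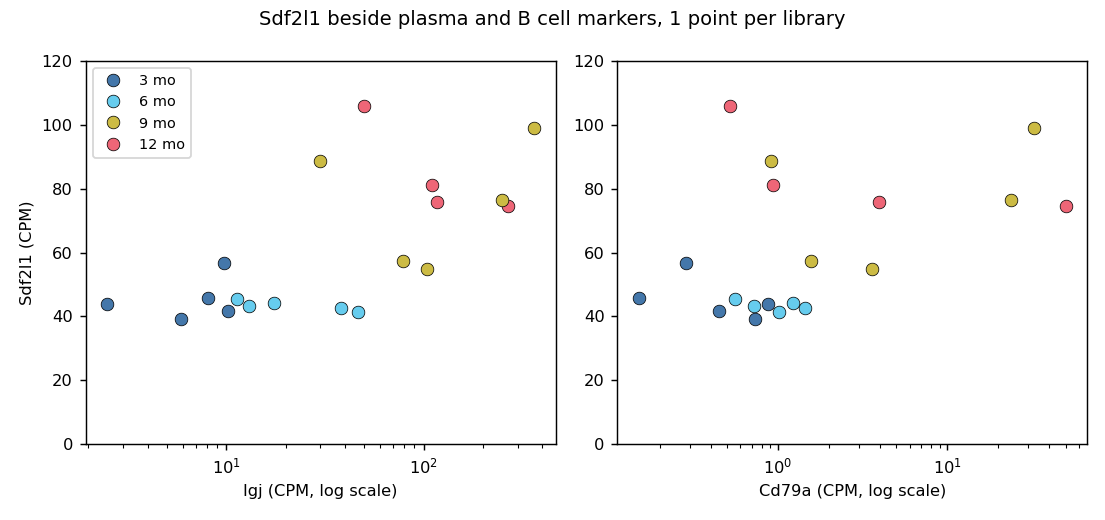
Sdf2l1 (y axis, CPM) beside the antibody chain gene Igj and the B cell gene Cd79a (x axes, CPM on a log scale), 1 point per library. The 12 month library with the most Sdf2l1, at 106 CPM, had 49.8 CPM of Igj and 0.519 CPM of Cd79a, and the 6 month libraries stayed between 41.4 and 45.5 CPM of Sdf2l1 while Igj ran from 11.3 to 46.7 CPM. In 9 month replicate 2 Sdf2l1 was at 99.1 CPM, Igj at 365 CPM and Cd79a at 32.4 CPM.

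Some transcripts of the oviduct, a neighbouring tissue that can be cut out with the ovary, also rose in that comparison. Of the 10 tested oviduct markers 3 rose between 3 and 12 months, where 10.9% of all genes did, and 0 fell. Their summed levels overlapped between these ages. The 11 oviduct markers with a row summed to 2784 to 5829 CPM at 12 months against 2156 to 3328 CPM at 3 months, and Muc16 was listed at 0 throughout. With the mean of that list as a covariate Sdf2l1 (0.71; edgeR adjusted p = 0.0195) and Manf (0.45; edgeR adjusted p = 0.0469) were called at 12 months, while Creld2 (0.40; edgeR adjusted p = 0.0502) and Calr (0.21; edgeR adjusted p = 0.17) were not. Along the trend Creld2 was called with it (0.61; edgeR adjusted p = 0.0105) and Calr was not (0.20; edgeR adjusted p = 0.105). Corpus luteum markers summed to 5820 to 13728 CPM at 12 months against 6155 to 11547 CPM at 3 months. Macrophage markers were at 710 to 1092 CPM against 450 to 761 CPM and stromal markers at 3840 to 5315 CPM against 3388 to 4098 CPM, and their part in the rises was not tested.

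Genes that take proteins into the ER and trim them rose in part. Of 23 genes of translocation, signal peptide cleavage and N-glycan transfer 6 rose and 0 fell at 12 months (median log2 change 0.12). Of all genes 10.9% rose and 11.5% fell. With the oviduct covariate 2 of the list rose, where 572 of all 15518 genes rose and 613 fell, against 1693 and 1782 without it. Along the trend 10 rose, where 14.7% of all genes did, with 6 left without 12 month replicate 1 and 6 with the oviduct covariate. The rises over all genes were 2056 and 1831 in these fits, against 2274 with all libraries and no covariate. Sec61a1, the pore subunit of the translocon, averaged 352 ± 26.1 CPM in 12 month ovaries (n = 4, SD), against 295 ± 9.02 CPM in 3 month ovaries (n = 5, SD; edgeR adjusted p = 0.00551). Its partner Sec61b averaged 89.7 ± 7.62 and 65.2 ± 3.85 CPM at these ages (edgeR adjusted p = 0.00334), with no overlap, since its lowest 12 month library was at 82.9 CPM and its highest 3 month library at 70.4 CPM. The translocon-associated gene Ssr4 rose by 0.36 ± 0.09 (log2, SE; edgeR adjusted p = 0.00792). Correcting for length and GC ended the 12 month calls on Sec61a1 and Ssr4, and the oviduct covariate those on Ssr4, Dad1 and Sec11c. Dad1, an oligosaccharyltransferase subunit, rose by 0.27 ± 0.07 (log2, SE; edgeR adjusted p = 0.00983). The signal peptidase subunit Sec11c rose by 0.54 ± 0.14, which missed the threshold when 12 month replicate 1 was left out (0.40) and with the plasma and B cell covariate.

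Of 24 genes of ER-associated degradation, which returns misfolded proteins to the cytosol for destruction, 8 rose and 0 fell at 12 months (median log2 change 0.11; 10.9% of all genes rose), and 11 rose along the trend (median 0.16; 14.7% of all genes rose). Along the trend 7 rose with the correction for length and GC and 4 with the plasma and B cell covariate. Of all genes 1670 and 1067 rose along the trend in these fits, against 2274 without correction or covariate. At 12 months the count was 4 without 12 month replicate 3, 5 without 3 month replicate 5, 5 with the plasma and B cell covariate and 3 with the oviduct covariate. The rises over all genes were 1086, 1149, 1158 and 572 in the same order, against 1693 with all libraries and no covariate. The ubiquitin ligase gene Syvn1 averaged 74.8 ± 16.9 CPM in 12 month ovaries (n = 4, SD), against 52.3 ± 2.53 CPM in 3 month ovaries (n = 5, SD; edgeR adjusted p = 0.00877). Edem1, a mannosidase-like protein that picks substrates, averaged 171 ± 26.9 and 127 ± 10.9 CPM (edgeR adjusted p = 0.00536), and had its highest mean, 193 ± 20.7 CPM, at 9 months (SD, n = 5). The membrane ligase gene Rnf5 rose by 0.30 ± 0.07 (log2, SE; edgeR adjusted p = 0.0061), a call that the correction for length and GC ended at 12 months and along the trend. Herpud1, a stress-induced scaffold of this machinery, rose by 0.52 ± 0.15 at 12 months (log2, SE; edgeR adjusted p = 0.0166), though not when 12 month replicate 3 was left out (0.36). Selk, a selenoprotein of the same machinery, rose by 0.27 ± 0.08 (log2, SE; edgeR adjusted p = 0.0199), though not when 3 month replicate 5 or 12 month replicate 1 was left out (0.19 to 0.24). Along the trend the calls on both held with each library left out, and Herpud1 rose by 0.75 ± 0.20 (log2, SE; edgeR adjusted p = 0.00788). The plasma and B cell covariate ended the calls on Herpud1 at 12 months and along the trend. Leaving out all 3 month libraries also ended its trend call, and the oviduct covariate ended the 12 month calls on Herpud1 and Selk.

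Among 36 other folding enzymes and chaperones of the ER 5 rose and 1 fell at 12 months (median log2 change 0.05), a share of rises near the 10.9% of all genes, and 10 rose and 2 fell along the trend, where 14.7% and 14.8% of all genes did. The 10 became 6 without 12 month replicate 1, 5 with the correction for length and GC and 3 with the plasma and B cell covariate. The rises over all genes became 2056, 1670 and 1067 in the same order, from 2274. The count at 12 months was 2 up and 1 down without 12 month replicate 1, and 0 up and 1 down with the oviduct covariate. Over all genes those fits called 1309 up and 1480 down, and 572 up and 613 down. Fkbp11, a prolyl isomerase of secretory cells, averaged 20.7 ± 6.06 CPM in 12 month ovaries (n = 4, SD), against 9.99 ± 0.818 CPM in 3 month ovaries (n = 5, SD; edgeR adjusted p = 0.00481). The chaperone gene Cnpy3 rose by 0.29 ± 0.07 (log2, SE; edgeR adjusted p = 0.00832), a call that ended with the correction for length and GC and with the oviduct covariate. The oviduct covariate also ended the 12 month call on Fkbp11. Uggt2, a sensor of glycoprotein folding, was the one that fell, to 16.6 ± 2.91 CPM at 12 months, against 25.6 ± 1.88 CPM at 3 months (edgeR adjusted p = 0.0019). Ppib, a prolyl isomerase for collagen, and Sep15, a partner of the glycoprotein sensors, rose along the trend by 0.23 ± 0.06 and 0.25 ± 0.07 (log2, SE; edgeR adjusted p = 0.00988 and 0.00816). The trend call on Ppib ended with the correction for length and GC. That on Sep15 ended with the plasma and B cell covariate and without the 3 month libraries. Their calls at 12 months depended on single libraries, for Ppib 3 month replicates 2, 3 and 4 and 12 month replicate 1 (log2 change 0.15 to 0.18) and for Sep15 3 month replicates 3 and 4 and 12 month replicates 1, 2 and 3 (0.15 to 0.20).

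Retrieval receptors, coat proteins and calcium channels of the ER made up a list of 20, of which 3 rose and 1 fell at 12 months (median log2 change 0.08), shares near the 10.9% and 11.5% of all genes. Kdelr1 and Kdelr2, receptors that return BiP and its kin from the Golgi, averaged 150 ± 5.84 and 171 ± 8.30 CPM in 12 month ovaries (n = 4, SD), against 130 ± 5.24 and 145 ± 6.97 CPM in 3 month ovaries (n = 5, SD; edgeR adjusted p = 0.0108 and 0.0102). The call on Kdelr1 ended with the correction for length and GC and with the oviduct covariate. The calcium release channels went opposite ways: Itpr3 rose by 0.75 ± 0.14 and Itpr1 fell by 0.39 ± 0.10 (log2, SE; edgeR adjusted p = 0.0018 and 0.00859). The coat gene Sec24d passed the test along the trend (0.31 ± 0.09; log2, SE; edgeR adjusted p = 0.0158), where 5 of the list rose and 1 fell, against 14.7% and 14.8% of all genes. With the plasma and B cell covariate 3 of the list rose along the trend and the call on Sec24d ended. Of all genes 1067 rose along the trend with that covariate, against 2274 without it. The list's lowest count of rises along the trend under any alternative was 1.

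Among the 20 sensors and transducers of the unfolded protein response 2 rose and 2 fell at 12 months (median log2 change 0.09), shares near those of all genes (10.9% and 11.5%). There were 1 up and 0 down without 12 month replicate 3, 2 up and 0 down without 3 month replicate 1, and 1 up and 0 down with the oviduct covariate. Over all genes these fits called 1086 up and 1038 down, 1329 up and 1431 down, and 572 up and 613 down. Chac1, a target of the PERK and ATF4 branch that degrades glutathione, was scarce, at 3.23 ± 1.10 CPM in 12 month ovaries (n = 4, SD), against 1.15 ± 0.482 CPM in 3 month ovaries (n = 5, SD), and rose by 1.49 ± 0.30 (log2, SE; edgeR adjusted p = 0.00318). Creb3, a transcription factor held in the ER membrane, rose by 0.26 ± 0.07 (log2, SE; edgeR adjusted p = 0.0169), a call that ended when 12 month replicate 3 was left out (0.22) and held along the trend with each library left out (edgeR adjusted p = 0.00457). Its 12 month call also ended with the correction for length and GC and with the oviduct covariate. Eif2s1, the translation factor that PERK phosphorylates, averaged 127 ± 8.82 CPM at 12 months and 160 ± 19.2 CPM at 3 months (SD; n = 4 and 5). It fell along the trend by 0.38 ± 0.10 (log2, SE; edgeR adjusted p = 0.00595), and its 12 month call ended when 3 month replicate 1, 3 month replicate 5 or 12 month replicate 3 was left out (-0.31 to -0.27). The correction for length and GC, the plasma and B cell covariate and the oviduct covariate each ended the 12 month call on Eif2s1 too. The plasma and B cell covariate, and leaving out all 3 month libraries, each ended the trend calls on Creb3 and Eif2s1. Ern1, which encodes IRE1, averaged 62.6 ± 4.19 CPM at 12 months and 72.3 ± 5.09 CPM at 3 months. Its trend of -0.34 ± 0.11 (log2, SE; edgeR adjusted p = 0.0262) ended when 12 month replicate 3 was left out (-0.31). Its 12 month change (-0.21 ± 0.07; edgeR adjusted p = 0.0458) held in 15 of 31 alternatives. Eif2ak3, which encodes PERK, passed along the trend (0.24 ± 0.09; edgeR adjusted p = 0.0412), a call that held in 17 of 31 alternatives.

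Heat shock genes outside the ER that passed the test were lower at 12 months. Of 23 cytosolic and mitochondrial members 11 fell and 0 rose at 12 months (median log2 change -0.22), and 11 fell along the trend (median -0.19), against 11.5% and 14.8% of all genes. At 12 months 2 fell without 12 month replicate 3, 6 without 3 month replicate 3, 3 with the oviduct covariate and 4 with the plasma and B cell covariate. The falls over all genes were 1038, 1343, 613 and 1333 in the same order, against 1782 with all libraries and no covariate. Along the trend 4 fell with the plasma and B cell covariate, where 1106 of all genes did, against 2302 without it. Hsp90aa1, the inducible cytosolic Hsp90, fell to 1252 ± 163 CPM at 12 months (SD, n = 4), against 1761 ± 171 CPM at 3 months (SD, n = 5; edgeR adjusted p = 0.00636). Hspa4, a nucleotide exchange factor of cytosolic Hsp70, fell to 413 ± 40.1 CPM, against 541 ± 17.4 CPM (edgeR adjusted p = 0.00451). The mitochondrial chaperonin genes Hspd1 and Hspe1 and the mitochondrial Hsp70 gene Hspa9 fell along the trend by 0.50 ± 0.12, 0.43 ± 0.11 and 0.35 ± 0.09 (log2, SE; edgeR adjusted p = 0.00445, 0.0057 and 0.00476), calls that held with each library left out. The plasma and B cell covariate ended the trend calls on Hspd1 and Hspe1, and leaving out all 3 month libraries ended those on all 3 genes. At 12 months the calls on these 3 ended when 12 month replicate 3 was left out (-0.39 for Hspd1). The call on Hspa9 also ended without 12 month replicate 1 (-0.29 to -0.27 over both) and that on Hspe1 without 12 month replicate 2 (-0.37 to -0.35 over both). With the oviduct covariate the 12 month calls on all 3 genes ended, and with the plasma and B cell covariate those on Hspd1 and Hspe1. Of the 11 oocyte markers 10 fell over the same ages, and their part in these falls was not tested.

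**Figure D5:**
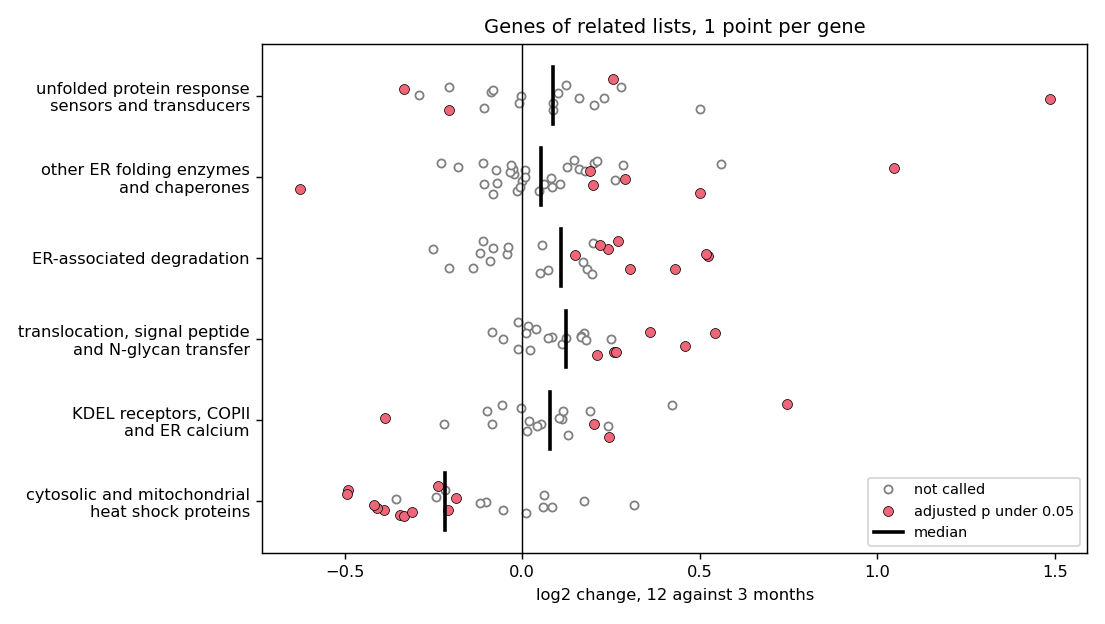
Log2 change at 12 against 3 months (x axis) of every tested gene in 6 related lists (rows), filled where the adjusted p was under 0.05, with a bar at each list's median. Of the 24 ER-associated degradation genes 8 rose and 0 fell, and of the 23 cytosolic and mitochondrial heat shock genes 11 fell and 0 rose.

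Outside the set, the genes whose levels across the 19 libraries most resembled the members' mean (each gene in SDs from its own mean) were Spcs2 (Pearson r = 0.92), Pdia6 (0.89), Srp9 (0.85), Slc35b1 (0.84), Kdelr2 (0.82), E4f1 (0.81), Copz1 (0.79) and Tmprss11g (0.78). Spcs2 is a subunit of signal peptidase, Pdia6 a disulfide isomerase of the ER, Srp9 part of the signal recognition particle and Copz1 part of the coat that carries cargo back to the ER. Spcs2 averaged 233, 230, 249 and 263 CPM at 3, 6, 9 and 12 months, and Pdia6 averaged 547, 551, 580 and 629 CPM. Tmprss11g was near the limit of detection, with an overall mean of 0.519 CPM. After subtracting each age's mean, Spcs2 (0.86) and Pdia6 (0.85) were again the first 2, followed by Pole4, Gtf2a1 and Slc35b1 (0.81 each).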

How the data were processed

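RNA with an integrity number over 7 from 19 whole ovary samples went into strand-keeping libraries, per the labels' protocols. Per the submitters' processing notes the build was mm10, and per the file headers gene models came from RefSeq. No source used here names the aligner, the counter or its use of strand. The authors deposited estimated counts that need not be whole. They also deposited log2 values relative to the 3 month median, used only in an alternative. A further 1 column of library values in either table matched no sample and stayed out.

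Estimated counts were rounded and tested with edgeR 4.0.16 in R 4.3.3 (robust quasi-likelihood test, TMM scaling, age means fitted on all 19 libraries, minimum count 10, minimum total 15), with Benjamini-Hochberg adjustment over 15518 genes. Same-age libraries differed by a chi-square per degree of freedom of 5.02 to 37.97, so each counted as 1 sample. Alternatives used limma 3.58.1, DESeq2 1.42.0, other scaling and filters, covariates and left-out libraries. A length is that of a gene's longest GENCODE M21 transcript with a RefSeq match. Promoters came from RefSeq GRCm38.p6, the assembly of mm10.

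The members and lists were chosen with earlier results of these data known. From each related list the named genes are the 5 with the smallest p among those called at 12 months or along the trend. Selenos, Mzb1 and Dnah5 were not analysed here. Ratios to Hspa5 and the related lists under alternatives were chosen after seeing the data.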

Additional observations from a re-analysis of the deposited data

How the results depend on the processing

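The number of members called kept within 1.5 times its value under the alternatives other than these. Between 3 and 12 months 2 were called with the oviduct list as a covariate, and between 6 and 12 months 5 with the plasma and B cell list as a covariate. With each library left out in turn, 3 to 4 were called between 3 and 12 months, 3 to 4 between 6 and 12 months, 2 to 3 between 3 and 9 months, 3 in each case between 6 and 9 months, 3 to 5 along the trend, and 0 between 3 and 6 and between 9 and 12 months. Sdf2l1 and Manf were called between 3 and 12 months in all 31 alternatives (log2 change 0.71 to 0.98 and 0.45 to 0.60), Creld2 in 30 (0.40 to 0.76) and Calr in 22 (0.21 to 0.35; adjusted p 0.011 to 0.17). Hyou1 passed along the trend in 1 alternative, without 3 month replicate 3 (0.26).

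Signs turned for changes that were never called. Hsp90b1 was at -0.06 between 3 and 12 months and -0.05 along the trend with the oviduct covariate, at -0.00 along the trend without the 3 month libraries, and at -0.07 to 0.07 and -0.05 to 0.06 with single libraries left out. Pdia4 was at -0.07 and -0.02 without the libraries over 5 CPM of Cr2, and at -0.07 to 0.15 and -0.01 to 0.21 with single libraries left out. Creld2 was at -0.01 between 9 and 12 months with the oviduct covariate. With single libraries left out, Sdf2l1 was at -0.11 to 0.03 between 3 and 6 months and Calr at -0.00 to 0.08 between 6 and 9 months. The causes were not tested. For all genes the count called between 3 and 12 months was 1693 up and 1782 down, against 572 and 613 with the oviduct covariate and 1086 and 1038 without 12 month replicate 3. Without the 3 month libraries the trend called 0 heat shock genes and 2 degradation genes, against 11 of either list with all ages. Over all genes that trend called 378 up and 554 down, against 2274 and 2302 with all ages. With the plasma and B cell covariate the trend called 1067 genes up and 1106 down. No paired analysis was possible because the labels give no replicate number shared between ages. The 4 or 5 libraries per age limit the precision: the 95% interval for Hyou1 between 3 and 12 months ran from -0.00 to 0.39.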

Other observations

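Single members had partners of their own across the 19 libraries, described here with no test. Levels most like Sdf2l1 were those of Cdk2ap2 (Pearson r = 0.90), Atp6v0d1, a subunit of the proton pump of lysosomes (0.88), and Syvn1, the ubiquitin ligase of ER-associated degradation (0.88). Cdk2ap2 averaged 34.3, 35.3, 44.7 and 52.9 CPM at 3, 6, 9 and 12 months and Atp6v0d1 80.7, 83.9, 99.2 and 103 CPM. Levels most like Calr were those of Pdia6 (0.86), Slc35b1 (0.79) and Pdia3 (0.78), a disulfide isomerase that works with calreticulin. Pdia3 averaged 1151, 1166, 1192 and 1240 CPM at the 4 ages. For Hspa5 they were Spcs2 (0.78), Srp9 (0.78) and E4f1 (0.74). Libraries differ in depth and tissue make-up, also within an age, and such values do not separate these differences from others.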
